A study of Mus musculus with 16 samples.

Results

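Hyperoxia was compared with normoxia in wild-type alveolar epithelial type II (AT2) cells, using 10 of the 16 arrays of a series on newborn mice. The 6 hyperoxia samples came from wild-type pups that breathed 85% oxygen in a chamber between postnatal days 0 and 3, and the 4 normoxia samples came from wild-type pups of the same age (day 3) that the labels describe only as normoxia. The other 6 arrays hold pups heterozygous for Fgf10 (Fgf10+/-), which lack 1 copy of a fibroblast growth factor gene in every cell, with 4 samples from normoxia and 2 from hyperoxia. The sources used here do not say whether a sample is 1 pup or a pool, or how the cells were purified, so p-values measure the spread between these samples, which may be technical. The values are log2 intensities of single-colour arrays on a scale the authors had normalized, 1 chosen feature (array probe) stands for each of 20725 genes, and precision is limited by how few samples there are. The p53 targets and MHC genes of 2 lists and a block of features that rise together in some arrays were set aside, as were genes whose other features did not move, and the account below is of the genes that are left.

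AT2 cells line the alveoli, make and recycle surfactant through lysosome-related organelles called lamellar bodies, and divide to renew the alveolar surface. High oxygen in the first days of life injures the growing lung and arrests the formation of alveoli, and in mice it serves as a model of bronchopulmonary dysplasia, the chronic lung disease of preterm infants. Lysosomes degrade what a cell takes up or recycles, and folliculin and the Ragulator complex on their surface pass nutrient signals to the growth kinase mTORC1.

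AT2 markers were high in every sample, with a mean over 15 markers between 10.76 and 11.72 in the 10 samples, where the median of all values was 4.34. The 10 club cell markers had means of 9.87 to 12.22 in normoxia and 8.17 to 12.30 in hyperoxia, above the AT2 mean in some samples, and the 10 alveolar type I (AT1) markers 9.83 to 10.99. RNA of other cells was present in amounts that differed between samples. Wild-type normoxia replicate 1 had a mean of 8.35 over 12 smooth muscle and pericyte markers against 6.02 to 6.41 in the other 3 normoxia samples, and 10.56 against 8.15 to 8.45 over 14 fibroblast markers. Normoxia replicate 4 had a mean of 7.36 over 13 thymocyte and T cell markers against 4.85 to 5.67 in the other 3 and 4.41 to 5.13 in hyperoxia. Genes that did not pass without one of these libraries are given with their change without it. In bulk RNA, fewer cells of a type and less RNA per cell cannot be told apart.

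By limma with Benjamini-Hochberg adjustment over all genes, 367 genes rose (1.77% of those tested) and 282 fell (1.36%). Of all 20725 genes, 3774 had an unadjusted p under 0.05, against which such counts in lists are to be read. Of the 367 that rose, 158 followed the co-rising block and 12 were p53 targets, MHC genes or the genes that define the block. Another 20 had names in the form of predicted or clone-named genes. The name rule also caught ND1, a known mitochondrial gene, which is among these 20. Another 61 rested on 1 feature while the gene's other features did not move, and in 54 of these the other features were all dim, under 6 on the log2 scale. This left 116 genes that rose. Among the 282 that fell the co-rising block had 0 members, 7 belonged to the p53 or MHC lists, 11 were predicted or clone-named, 60 had other features that did not move, and 204 were left. Only a positive correlation with the block, over 0.7, set a gene aside, so genes that ran opposite to it were kept. Of the genes left, 19 higher and 46 lower ones had a further feature that moved in the same direction by at least 0.5 of the change of the chosen one, and the others have 1 feature. Median folds were 2.06 for the higher genes and 1.91 for the lower ones. Over all genes the median change was -0.08. Centring each array on its median brought it to 0.03 and gave 509 higher and 161 lower genes.

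**Figure D1:**
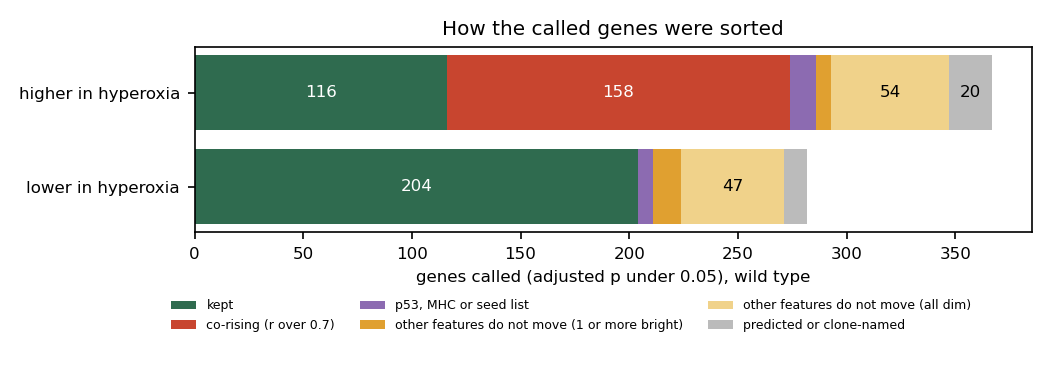
Genes called in wild-type hyperoxia against normoxia (x axis, number of genes, adjusted p under 0.05), with 1 bar for each direction split by what became of them. Of 367 higher genes 116 were kept and 158 were co-rising, and of 282 lower genes 204 were kept.

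In 93 of the 116 higher genes every hyperoxia sample lay above every normoxia sample, a separation seen in 3.13% of all genes. In 189 of the 204 lower genes every hyperoxia sample lay below, as in 4.02% of all genes. The call itself selects for such separation. After centring, 116 of the higher and 111 of the lower genes were still called. Leaving out 1 sample at a time kept between 102 of the 320 genes (without normoxia replicate 2) and 254 (without hyperoxia replicate 4), with 134 without normoxia replicate 4. In all, 36 higher and 44 lower genes passed in all 10 of these fits. Of the genes named below, 16 also passed in the other alternatives that tested them: Creg1, Flcn, Lgals4, Rnase10, Zfp975, Otog and H4c8 among the higher ones, and Dlk1, Ralgps1, Vwa3b, Gfpt2, Apoc1, Cirbp, Hdac7, Sf3a2 and Mxd1 among the lower ones. Counting genes not described below, 13 higher and 11 lower ones passed in the 10 fits and in every other alternative run on all genes. Those not described are Tnfaip3, Bpifc, Klhl17, Ankrd24, Rmnd1, Stac3, Nlrp5 and Zfp976.

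**Figure D2:**
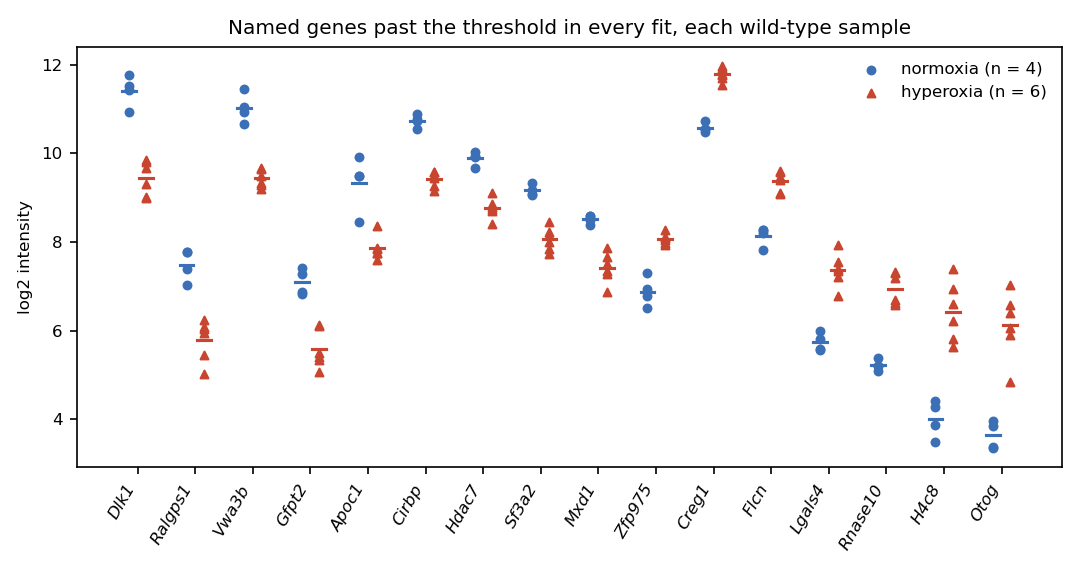
Log2 intensity (y axis) of the 16 named genes that passed the threshold in every fit, in each normoxia (blue circles, n = 4) and hyperoxia sample (red triangles, n = 6) of wild type, with group means as bars. In each gene the samples of the 2 groups do not overlap, from Dlk1 with the largest fall to Otog with the largest rise.

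Genes known for work in or on the lysosome were among those that rose, and 7 of them are given here, picked after their values were seen. Creg1, a lysosomal glycoprotein, stood at 10.49, 10.72, 10.55 and 10.55 in normoxia and at 11.54 (lowest), 11.79 (median) and 11.97 (highest) in hyperoxia. This is a 2.31-fold rise (log2 change 1.21, SE 0.14, limma with Benjamini-Hochberg adjusted p = 1.95e-04), and a second Creg1 feature changed by 1.17 while a further, dim one changed by 0.15. Flcn, which encodes folliculin, the regulator of nutrient signalling at the lysosome, stood at 8.27, 7.82, 8.20 and 8.28 in normoxia and at 9.08, 9.43 and 9.60 (lowest, median, highest) in hyperoxia. It rose 2.35-fold (log2 change 1.23, SE 0.18, limma adjusted p = 8.64e-04), and its second feature changed by 1.04. Neither gene had a hyperoxia sample within the normoxia range.

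Aga encodes aspartylglucosaminidase, a lysosomal hydrolase of glycoproteins, and has 10 features. The chosen one was at 6.49, 6.31, 5.94 and 6.31 in normoxia and at 7.08, 7.26 and 7.39 (lowest, median, highest) in hyperoxia, a 1.99-fold rise (limma adjusted p = 0.00511). The 10 features changed by between 0.77 and 1.17, although whether some carry the same oligonucleotide is not given. Rilp, an effector of the small GTPase RAB7 on late endosomes, rose 1.91-fold from a mean of 7.50 to 8.44 (limma adjusted p = 0.00964). Vps16, a core subunit of the complexes that tether endosomes to lysosomes, rose 1.66-fold (limma adjusted p = 0.0199), from 8.44, 8.10, 8.09 and 8.59 to 8.92, 9.02 and 9.13 (lowest, median, highest). It did not pass without normoxia replicate 2 (0.66) or 3 (0.66). Lgmn, the lysosomal protease legumain, rose by 0.74 and Lamtor3, a Ragulator subunit, by 0.56 on the log2 scale (limma adjusted p = 0.0465 and 0.0452), but Lgmn passed in 1 of the 10 fits that left out a sample and Lamtor3 in 0. Without normoxia replicate 4 they were at 0.68 and 0.53.

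In the wider list of lysosome and autophagy genes, which holds none of these 7, 29 were measured, 0 rose and 1 fell. Of the 29, 9 had an unadjusted p under 0.05, 3 of them lower, against 3774 of all 20725 genes. The median change was 0.15 against -0.08 over all genes. When arrays were centred, 16 had such a p (3 lower), 21 had a positive change and 0 were called. The median was then 0.26 against 0.03 over all genes. Without normoxia replicate 1 only 3 had such a p (2 lower), without replicate 4 only 5 (3 lower). Without both, 4 had it (3 lower) and the median was 0.14. The 1 called member that fell was Sqstm1, the autophagy receptor p62. It stood at 9.74, 10.49, 9.84 and 9.47 in normoxia and at 8.46, 9.17 and 9.24 (lowest, median, highest) in hyperoxia (limma adjusted p = 0.0467). It passed in 2 of the 10 fits that left out a sample and was at -0.90 without normoxia replicate 1.

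The promoters of Creg1, Flcn and Vps16 are shown because these genes rose in both genotypes and TFEB and TFE3, the transcription factors best known for lysosomal genes, bind motifs built on the letters CACGTG. The 250 bases before the RefSeq start of each gene (assembly GRCm38.p6) are printed 5′ to 3′ on the gene's strand, with CACGTG and the cyclic AMP response element TGACGTCA, searched on both strands, in capitals.
Creg1 (chr1:165763508-165763757, plus strand): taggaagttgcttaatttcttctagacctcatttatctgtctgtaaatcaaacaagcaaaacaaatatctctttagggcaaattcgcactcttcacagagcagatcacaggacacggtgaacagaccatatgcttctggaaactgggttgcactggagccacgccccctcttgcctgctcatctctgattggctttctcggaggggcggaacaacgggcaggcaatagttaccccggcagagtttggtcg
Flcn (chr11:59810040-59810289, minus strand): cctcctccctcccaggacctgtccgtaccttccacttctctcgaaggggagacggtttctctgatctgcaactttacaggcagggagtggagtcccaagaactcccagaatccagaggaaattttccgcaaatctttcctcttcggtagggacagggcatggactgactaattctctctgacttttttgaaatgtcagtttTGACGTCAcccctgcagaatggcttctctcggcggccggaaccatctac
Vps16 (chr2:130424070-130424319, plus strand): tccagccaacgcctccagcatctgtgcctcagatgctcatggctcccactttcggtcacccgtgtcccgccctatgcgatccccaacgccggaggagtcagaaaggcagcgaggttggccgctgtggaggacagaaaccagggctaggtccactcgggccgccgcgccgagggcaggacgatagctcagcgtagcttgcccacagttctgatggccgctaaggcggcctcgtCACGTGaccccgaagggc
Vps16 had 1 CACGTG, 18 bases before its start, Flcn had 1 TGACGTCA, 49 bases before its start, and neither motif was in the Creg1 stretch. Among all 32851 windows of 300 bases (250 before to 50 after a start), 7.15% held CACGTG and 1.79% held TGACGTCA. Of the 7 lysosomal genes 5 had a window, and 2 of these held CACGTG in at least 1 window, whereas the 7.15% counts windows and not genes. Of the 56 genes of this account that were searched and had a window, 7 held CACGTG. Cited2, Igsf9, Tubb5, Runx1 and Hnrnpa3 were among these, and all of them fell. A match is a description of the letters and no evidence of binding.

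Among genes known for RNA binding and splicing, picked after their values were seen, 4 single genes fell and a kinase of splicing factors rose. Cirbp, the cold-inducible RNA-binding protein, stood at 10.54, 10.72, 10.88 and 10.78 in normoxia and at 9.15, 9.47 and 9.58 (lowest, median, highest) in hyperoxia. It fell 2.49-fold (log2 change -1.31, SE 0.17, limma adjusted p = 3.41e-04), with a gap of nearly 1 log2 unit between the groups. Rbm3, the other cold-inducible protein of this family, had a change of -0.42 with overlapping groups (limma adjusted p = 0.345). Sf3a2, a subunit of the U2 particle of the spliceosome, fell 2.14-fold (limma adjusted p = 0.00153), from 9.18, 9.08, 9.33 and 9.07 to 7.73, 8.08 and 8.46 (lowest, median, highest). The splicing regulator Srek1 fell 2.05-fold (limma adjusted p = 0.00535) and Raly, a binder of heterogeneous nuclear RNA, 2.14-fold (limma adjusted p = 0.0113), both without overlap between the groups.

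Clk1, a kinase that phosphorylates SR splicing factors, rose 2.05-fold, from 7.96, 7.36, 7.50 and 7.76 to 8.16, 8.61 and 9.17 (lowest, median, highest; limma adjusted p = 0.00964). Without normoxia replicate 2 its change was 0.94 and did not pass. Eif4a2, a helicase of translation initiation, rose 1.73-fold (limma adjusted p = 0.00864), from 10.27, 10.25, 10.52 and 10.11 to 10.82, 11.10 and 11.22, and its second feature changed by 1.15. Whole families were counted too. Of 20 heterogeneous nuclear ribonucleoprotein genes 2 fell, Hnrnpa3 (-0.75) and Hnrnpa1 (-1.01), and the median was -0.16. Hnrnpa3 was lost without normoxia replicate 4 (-0.67) and Hnrnpa1 in 8 of the 10 fits that left out a sample, with -0.94 and -0.78 without normoxia replicate 1 and 4. Of 11 SR splicing factor genes 0 passed by limma and the median was 0.20. Each of the genes but Eif4a2, Rbm3 and the 2 ribonucleoproteins has only 1 feature.

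Several of the genes that fell encode regulators of transcription or chromatin, and these too were picked after their values were seen. Hdac7, a class IIa histone deacetylase, stood at 9.66, 9.95, 10.02 and 9.92 in normoxia and at 8.40, 8.77 and 9.10 (lowest, median, highest) in hyperoxia, a 2.18-fold fall (log2 change -1.13, SE 0.18, limma adjusted p = 0.00152). Mxd1, a MAX partner that opposes MYC, stood at 8.59, 8.58, 8.49 and 8.39 and at 6.86, 7.43 and 7.86, a 2.14-fold fall (limma adjusted p = 0.00353), and its second feature changed by -0.64. No sample of either gene crossed into the range of the other group.

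Eya1, a transcriptional co-activator and phosphatase of branching epithelium, fell 2.08-fold (limma adjusted p = 0.00742), from 10.41, 11.14, 10.95 and 10.95 to 9.54, 9.80 and 10.21. Csrnp1, a nuclear protein of the immediate response, fell 2.37-fold (limma adjusted p = 0.00932). Foxo1, the forkhead factor held in check by insulin signalling, fell 1.78-fold (limma adjusted p = 0.0128), with a second feature at -0.59. Cited2, a co-regulator at CBP and p300, fell 1.88-fold (limma adjusted p = 0.0283) and its second feature changed by -1.04, but it passed in 5 of the 10 fits that left out a sample and not without normoxia replicate 1 (-0.92). Runx1 fell 2.33-fold (limma adjusted p = 0.0255), with overlapping groups and 6 of the 10 fits passed. Zfp975, a zinc finger gene with 5 features, rose 2.29-fold (limma adjusted p = 8.09e-04), from 6.50, 6.93, 7.30 and 6.78 to 7.94, 8.07 and 8.27, and its other features changed by 0.97, 0.69, 0.64 and 0.18.

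Dlk1, an imprinted gene of a transmembrane relative of the Notch ligands, had the largest fall of the genes named here, at 11.53, 11.42, 11.77 and 10.93 in normoxia and 9.0, 9.49 and 9.86 (lowest, median, highest) in hyperoxia, and its second feature changed by -2.0 (first feature -1.97, limma adjusted p = 0.00121). The imprinted genes H19 and Meg3 were picked after their values were seen. H19, the maternally expressed noncoding RNA beside Igf2, fell 2.53-fold (limma adjusted p = 0.00864), from 12.51, 12.37, 11.97 and 11.67 to 10.38, 10.73 and 11.38. Meg3, the maternally expressed noncoding RNA of the Dlk1 region, rose 2.53-fold (limma adjusted p = 0.0211), from 7.79, 8.22, 9.28 and 8.85 to 9.06, 9.87 and 10.57. The Meg3 groups overlapped, and its change did not pass without normoxia replicate 1 (1.09) or 2 (1.23). It did not pass either with the mean of all its features (0.63), in wild-type samples alone (1.34), without both normoxia libraries (1.12) or with the thymocyte covariate (1.27).

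Histone and tubulin families, also chosen after values were seen, had mostly negative changes, as had 12085 of all 20725 genes. Of 71 core and linker histone genes 5 fell and 1 rose (8.45% called, against 3.13% of all genes), 57 had a negative change, and the median was -0.48. When arrays were centred it was -0.37, with 51 negative, against 9666 of all genes. H3c4, a replication-dependent histone H3 gene, had the smallest spread of the 5, at 12.74, 12.70, 12.68 and 12.88 in normoxia and 11.89, 11.97 and 12.00 (lowest, median, highest) in hyperoxia (log2 change -0.80, limma adjusted p = 0.0061). H3f3b, a gene of the replacement histone H3.3, fell by 0.69 (limma adjusted p = 0.0105), and H2ax, the variant phosphorylated at DNA breaks, fell by 1.20 (limma adjusted p = 0.0216). H4f16 fell by 1.54 (limma adjusted p = 0.0107), though its other feature did not move. H2ac11 fell by 1.57 (limma adjusted p = 0.035). H4c8, the 1 histone gene that rose, is described below.

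Normoxia replicate 4, the sample high in thymocyte markers, was the highest normoxia sample in each of these 5 falling genes except H3f3b, with H2ac11 at 15.59 there and 13.65 to 14.60 in the others. Without it the median of the histone genes was -0.37, and H2ax (-0.98) did not pass. H2ac11 passed in 3 of the 10 fits that left out a sample and was at -1.51 without normoxia replicate 1 and -1.18 without replicate 4, while H3c4, H3f3b and H4f16 passed in 10. With the mean of the thymocyte markers as a covariate, H2ac11 (-0.84) and H2ax (-0.80) did not pass, while H3c4 (-0.66), H3f3b (-0.69) and H4f16 (-0.97) did. Without both normoxia replicates 1 and 4, 0 histone genes were called lower by limma and 11 were lower at an unadjusted p under 0.05, with H3c4 at -0.73, H3f3b at -0.75 and H4f16 at -1.15. With the mean of all its features H3f3b was at -0.45 and did not pass.

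Of 16 tubulin genes 3 fell (18.75% called), 15 had a negative change and the median was -0.44. Without both normoxia replicates 1 and 4, 0 were called by limma, 4 had an unadjusted p under 0.05 and the median was -0.40, with Tuba1b at -0.76, Tubb5 at -0.79 and Tubb4a at -0.82. Tuba1b, a widely expressed alpha-tubulin, stood at 14.81, 14.81, 14.65 and 15.10 in normoxia and at 13.74, 13.96 and 14.17 (lowest, median, highest) in hyperoxia (log2 change -0.87, limma adjusted p = 0.00549). Tubb5, a beta-tubulin of dividing cells, fell by 0.97 (limma adjusted p = 0.00898) and Tubb4a by 1.11 (limma adjusted p = 0.0128), the latter lost without normoxia replicate 4 (-0.98). The groups of all 3 genes did not overlap. Tubulin genes resemble each other in sequence, and how far a probe also binds another member is not known here.

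Among the 14 largest rises in the genes left, chosen by a rule on size and separation, 6 had both group means at 6 or above and 12 rested on a single feature. Of the 14, 6 followed the co-rising block with correlations from 0.55 (Card6) to 0.70 (Mrgprg), under the limit of 0.7 that set a gene aside. Just inside the limit were Slc30a4 at 0.699 and Mrgprg at 0.696, and just outside was Medag at 0.704.

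Otog, known as the inner ear protein otogelin, was dim in normoxia, at 3.97, 3.37, 3.84 and 3.35, and reached 4.85, 6.22 and 7.02 (lowest, median, highest) in hyperoxia (log2 change 2.50, limma adjusted p = 8.56e-04). H4c8, a replication-dependent histone H4 gene, went from 3.49, 4.27, 4.41 and 3.86 to 5.64, 6.40 and 7.4 (log2 change 2.42, limma adjusted p = 8.70e-04). Mrgprg, a Mas-related receptor known from sensory neurons, had the largest rise, 2.72 (limma adjusted p = 0.00789), with hyperoxia values from 6.33 to 9.74. Lefty2, an inhibitor of Nodal, rose by 2.02 (limma adjusted p = 0.0107), Card6, a caspase recruitment domain protein, by 1.61 (limma adjusted p = 0.0219) and Col7a1, the collagen of anchoring fibrils, by 1.44 (limma adjusted p = 0.0166). These are the 6 genes that follow the block, and hyperoxia replicate 1 was the highest sample in each. Lefty2 did not pass without normoxia replicate 4 (1.79), Col7a1 without normoxia replicate 2 (1.23), and Card6 without normoxia replicate 2 (1.56), normoxia replicate 4 (1.66) or hyperoxia replicate 2 (1.47).

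The remaining rises had lower correlations with the block. Rnase10, a member of the ribonuclease A family known from the epididymis, stood at 5.20, 5.39, 5.21 and 5.08 in normoxia and at 6.57, 6.93 and 7.33 (lowest, median, highest) in hyperoxia, a 3.32-fold rise (log2 change 1.73, SE 0.20, limma adjusted p = 1.95e-04). Lgals4, a galectin best known from the gut, stood at 5.56, 5.59, 5.99 and 5.81 and at 6.79, 7.38 and 7.94, a 3.11-fold rise (limma adjusted p = 4.53e-04). Its other 2 features changed by 1.78 and 1.07. Neither gene had overlapping groups.

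Spink5, an inhibitor of serine proteases in stratified epithelia, was brighter, at 7.72, 8.61, 8.71 and 7.95 in normoxia and 9.27, 9.85 and 10.53 in hyperoxia (log2 change 1.65, limma adjusted p = 0.00519). Its correlation with the block was -0.47. Rasgef1a, an exchange factor for Ras proteins, stood at 6.65, 7.49, 7.69 and 7.41 and at 8.61, 8.74 and 8.98 (log2 change 1.45, limma adjusted p = 0.00464). Its 6 hyperoxia samples had an SD of 0.14 against 0.46 in the 4 normoxia samples. Mgmt, the enzyme that removes alkyl groups from guanine in DNA, rose 2.66-fold (limma adjusted p = 0.00314), from 7.15, 7.0, 6.65 and 6.53 to 7.52, 8.25 and 8.73.

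Of the genes that rose, 7 are described together here, a grouping made after values were seen, and most are known from vascular cells. Mmrn2, an extracellular protein of endothelium, stood at 8.73, 9.30, 8.70 and 8.73 in normoxia and at 9.64, 10.40 and 11.16 (lowest, median, highest) in hyperoxia, a 2.76-fold rise (limma adjusted p = 0.00707). Robo4, the endothelial Roundabout receptor, rose 2.73-fold (limma adjusted p = 0.0201), from 7.99, 8.29, 7.91 and 7.77 to 8.41, 9.46 and 10.31. Ushbp1, which encodes a harmonin-binding protein, rose 3.52-fold (limma adjusted p = 0.00677), from 6.48, 7.24, 6.51 and 6.98 to 7.88, 8.68 and 9.27, and its second feature changed by 1.28. Hyperoxia replicate 4 was the lowest hyperoxia sample in each of these genes.

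Apln, the endothelial ligand apelin, rose 2.68-fold (limma adjusted p = 0.0437), and Lyve1, the hyaluronan receptor of lymphatic endothelium, 2.47-fold (limma adjusted p = 0.0376). Stab1, a scavenger receptor of sinusoidal endothelium and macrophages, rose 2.67-fold (limma adjusted p = 0.0421), and Arap3, a GTPase-activating protein known from endothelial cells, 2.81-fold (limma adjusted p = 0.0405). These 4 calls passed in 1, 2, 2 and 4 of the 10 fits that left out a sample. Without normoxia replicate 4 the changes of Apln, Lyve1, Stab1 and Arap3 were 1.33, 1.19, 1.27 and 1.44, and without replicate 1 those of the first 3 were 1.51, 1.35 and 1.49, none past the threshold. Robo4 was lost without normoxia replicate 3 (1.42) or 4 (1.38). Lyve1, Stab1 and Arap3 were picked after their values were seen.

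Of the 15 endothelial markers 14 had a positive change, 0 passed by limma, 4 had an unadjusted p under 0.05, and the median was 0.49. The list mean per sample was 8.08, 8.39, 8.17 and 7.93 in normoxia and 8.04, 8.67 and 9.17 (lowest, median, highest) in hyperoxia. The hyperoxia samples with the low list means, replicates 4 and 6 at 8.04 each, lay within the normoxia range. They were also the lowest hyperoxia samples in these 7 genes, which is a description of genes grouped with the samples in view. Both still lay above every normoxia sample in Mmrn2, Robo4, Ushbp1, Apln and Lyve1. In Mmrn2 they stood at 9.64 and 9.77 against at most 9.30 in normoxia. The groups overlapped in Stab1 and Arap3, with replicate 4 at 6.93 and 7.97 against normoxia values up to 7.07 and 8.05. Replicate 6 was at 7.58 and 8.71 in these genes. Kdr, the main receptor for vascular endothelial growth factor, had a change of 1.15 (limma adjusted p = 0.0538), with hyperoxia values from 9.28 to 10.88 above normoxia values of 8.64 to 9.24. The part of endothelial RNA in these rises was not tested.

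**Figure D3:**
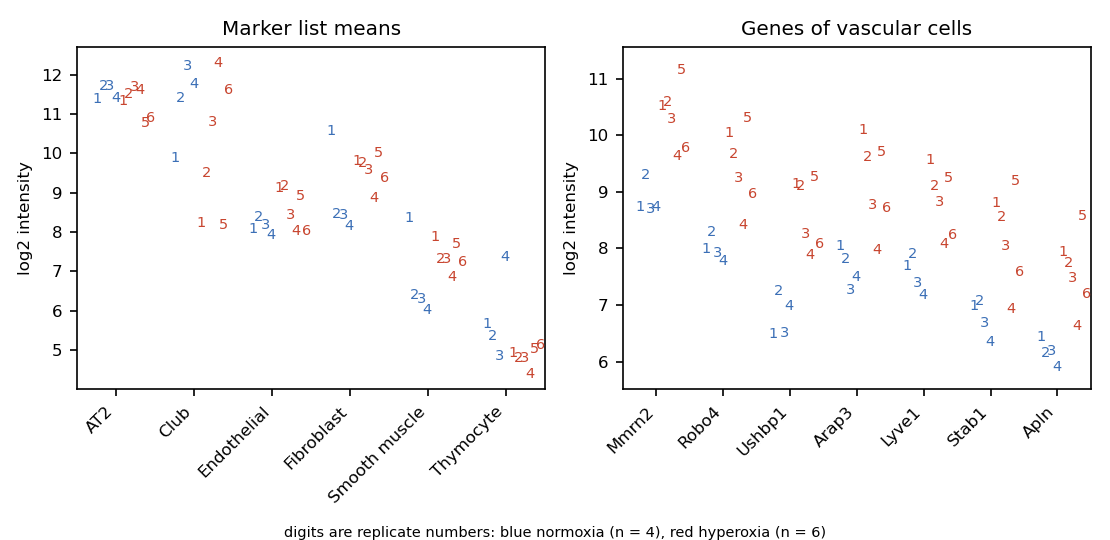
Log2 intensity (y axis) per wild-type sample of 6 marker list means (left) and of 7 genes grouped after their values were seen, most known from vascular cells (right), with each sample drawn as its replicate number, blue for normoxia (n = 4) and red for hyperoxia (n = 6). Normoxia replicate 1 stands out in fibroblast and smooth muscle markers and replicate 4 in thymocyte markers, and hyperoxia replicate 4 is the lowest hyperoxia sample in each of the 7 genes.

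The other large falls were in genes of varied roles. Ralgps1, an exchange factor for Ral GTPases, stood at 7.04, 7.77, 7.38 and 7.77 in normoxia and at 5.03, 5.99 and 6.24 (lowest, median, highest) in hyperoxia, a 3.23-fold fall (limma adjusted p = 6.61e-04). Vwa3b, a protein with a von Willebrand factor A domain, stood at 11.05, 10.93, 11.45 and 10.67 and at 9.19, 9.42 and 9.66, a 3.00-fold fall (limma adjusted p = 0.00117). Gfpt2, an isoform of the first enzyme of the hexosamine pathway, stood at 7.41, 7.27, 6.88 and 6.83 and at 5.07, 5.45 and 6.12, a 2.85-fold fall (limma adjusted p = 0.00319). Apoc1, an apolipoprotein, fell 2.78-fold (limma adjusted p = 0.00742), from 9.92, 9.49, 9.48 and 8.45 to 7.59, 7.80 and 8.36. In none of these genes did a hyperoxia sample reach the lowest normoxia sample. Correlations of Ralgps1, Vwa3b, Gfpt2 and Apoc1 with the co-rising block were -0.60, 0.28, -0.13 and 0.33.

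Ccno, a cyclin-like protein needed for the many centrioles of ciliated cells, fell 2.57-fold (limma adjusted p = 0.00663), from 9.19, 9.31, 9.47 and 9.31 to 7.13, 8.09 and 8.55. Its correlation with the co-rising block was -0.57. The 12 ciliated cell markers had a median change of -0.61 with 11 negative, and the 10 club cell markers a median of -0.72 with 10 negative (9 when arrays were centred), while 0 members of either list passed by limma and 1 and 2 had an unadjusted p under 0.05. Without normoxia replicate 1 these medians were -1.05 and -1.06. Ccno was lowest in hyperoxia replicates 5 (7.13) and 1 (7.46), the samples that also had the lowest ciliated means (7.01 and 6.85) and club means (8.17 and 8.23). Other samples did not follow this order. Normoxia replicate 1 had ciliated and club means of 7.26 and 9.87 with Ccno at 9.19. Hyperoxia replicate 4 had means of 8.88 and 12.30 with Ccno at 8.55, below every normoxia sample. The part of airway cell RNA in the fall of Ccno was not tested.

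Cxcl1 and Cxcl10, chemokines for neutrophils and for activated T cells, both fell. Cxcl10 stood at 9.27, 9.26, 9.11 and 9.50 in normoxia and at 7.59, 8.0 and 8.56 in hyperoxia (log2 change -1.30, limma adjusted p = 0.00549), with a second, dim feature at -1.15. Cxcl1 stood at 7.95, 7.60, 7.75 and 7.64 and at 5.29, 6.16 and 6.58. Bcl3, a nuclear co-regulator of the NF-kB proteins p50 and p52, fell 1.87-fold with little spread (limma adjusted p = 0.00423), from 9.33, 9.37, 9.26 and 9.14 to 8.17, 8.39 and 8.57. Itih4, an acute-phase protein, fell by 1.62 (limma adjusted p = 0.0188) and was lost without normoxia replicate 1 (-1.35) or 2 (-1.61).

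Smaller or less stable falls completed the set. Cdh16, a cadherin known from the kidney, fell by 1.42 (limma adjusted p = 0.0166) and was lost without normoxia replicate 2 (-1.35) or 3 (-1.31). Pgam2, the muscle phosphoglycerate mutase, fell by 1.45 (limma adjusted p = 0.0115) and was lost without normoxia replicate 2 (-1.39) or 4 (-1.33). Myl7, a myosin light chain of the cardiac atrium, fell by 1.38 (limma adjusted p = 0.0182) and was lost without normoxia replicate 2 (-1.38). It was highest in normoxia replicate 1, at 7.43 against 5.73 to 6.44, the sample high in smooth muscle markers. Cdca3 and Chac1 had changes of -1.68 and -1.66 (limma adjusted p = 0.0128 and 0.0159), with Cdca3 lost without normoxia replicate 4 (-1.33) and Chac1 without replicate 2 (-1.54) or 4 (-1.51).

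Further genes called lower in both genotypes were Igsf9, an immunoglobulin superfamily adhesion protein (-1.09, limma adjusted p = 0.00519), and Fam110a (-0.74, adjusted p = 0.0142). Their second features, compared in wild type only, changed by -0.82 and -0.81 (limma adjusted p = 0.274 and 0.0389 over all features). H2-K2 (-1.0), an MHC class I gene that the MHC list did not hold, the channel gene Hcn2 (-0.70), the nucleosome binder Hmgn5 (-0.76) and the mitochondrial ribosomal gene Mrpl9 (-0.68) were called with limma adjusted p between 0.027 and 0.0467 and passed in 1 to 4 of the 10 fits that left out a sample. Without normoxia replicate 1 they were at -0.83, -0.65, -0.70 and -0.65, none past the threshold. Without normoxia replicate 4, Hcn2 (-0.75), Hmgn5 (-0.71) and Mrpl9 (-0.62) did not pass either. Among genes that rose, Tatdn3, a nuclease-like protein, changed by 0.79 (limma adjusted p = 0.00932) and its second feature by 0.50.

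The 26 pathway lists gave few calls. None had more than 3 called members, although without normoxia replicate 1 lipid uptake had 6 higher and 1 lower and matrix genes 5 higher. The share called, read against 3.13% of all genes, was between 0% and 8.3%. Counts of members at an unadjusted p under 0.05 have 3774 of all 20725 genes as their background, and many lists were near that share. In the signalling lists, WNT had 37 measured members with 1 call (Nkd2, an inhibitor that was set aside as co-rising) and a median of -0.12. The lists for NOTCH (21 measured, median -0.11), Hippo and YAP (21, -0.22), the EGF receptor family (18, -0.22), and insulin and IGF (16, -0.11) had 0 calls by limma, with 2, 3, 5 and 4 members at an unadjusted p under 0.05. The members with the smallest p were the receptor Notch1 (1.38, limma adjusted p = 0.054, a co-rising gene), the TEAD cofactor Vgll4 (-1.10, adjusted p = 0.178), the feedback inhibitor Spry2 (0.83, adjusted p = 0.109) and the insulin receptor substrate Irs2 (-0.98, adjusted p = 0.0752). Angiogenic factors (23 measured, median 0.08) had 0 calls by limma and 7 members at an unadjusted p under 0.05.

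Among vasoactive peptide and nitric oxide genes (23 measured, median -0.12), arginase 1 (Arg1) fell by 1.19 (limma adjusted p = 0.0128), from a normoxia mean of 5.43 to 4.24, and was lost without normoxia replicate 2 (-1.15). Eicosanoid genes (27 measured, median -0.09) had 0 calls by limma and 4 members at an unadjusted p under 0.05, led by the phospholipase Pla2g1b at -1.13 (adjusted p = 0.102). Surfactant secretion signals (22 measured, median -0.22) had 1 call, the membrane fusion gene Snap23, which was set aside as co-rising.

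Without normoxia replicate 4 the medians were -0.24 for amino acid supply, -0.45 for growth arrest, -0.14 for ribosome biogenesis and -0.17 for DNA repair, the lists described next. Amino acid transport and serine synthesis (24 measured) had a median of -0.37 with 18 negative, 1 call and 9 members at an unadjusted p under 0.05. The call was Slc1a4, a neutral amino acid transporter (-1.01, limma adjusted p = 0.0311), which passed in 4 of the 10 fits that left out a sample and not without normoxia replicate 4 (-0.98). Slc3a2, the heavy chain shared by several transporters, was at -0.74 (adjusted p = 0.0605) and Slc7a5, the leucine transporter, at -1.14 (adjusted p = 0.0991), each without overlap between the groups and picked after its values were seen. Growth arrest genes (26 measured) had a median of -0.44 with 22 negative, 0 calls by limma and 10 members at an unadjusted p under 0.05, led by the lamin Lmnb1 at -1.12 (adjusted p = 0.0995).

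Ribosome biogenesis (26 measured) had a median of -0.27 with 22 negative and 9 members at an unadjusted p under 0.05. Its 1 call was Polr1a, the large subunit of RNA polymerase I, which fell by 0.68 (limma adjusted p = 0.0376). It passed in 3 of the 10 fits that left out a sample and not without normoxia replicate 4 (-0.56). Nucleolin (Ncl) was at -0.78 (adjusted p = 0.0571) and Nop58, a core protein of small nucleolar RNPs, at -0.75 (adjusted p = 0.0601), each without overlap and picked after its values were seen. DNA repair genes (36 measured) had a median of -0.27 with 29 negative, 2 calls higher and 1 lower. Beside Mgmt, the call higher was Ercc5, which was set aside, and the call lower was Ung, the uracil glycosylase of base excision repair. Ung stood at 10.48, 11.16, 10.95 and 11.05 in normoxia and at 9.70, 9.99 and 10.23 (lowest, median, highest) in hyperoxia (limma adjusted p = 0.0121), and did not pass without normoxia replicate 2 (-0.87).

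**Figure D4:**
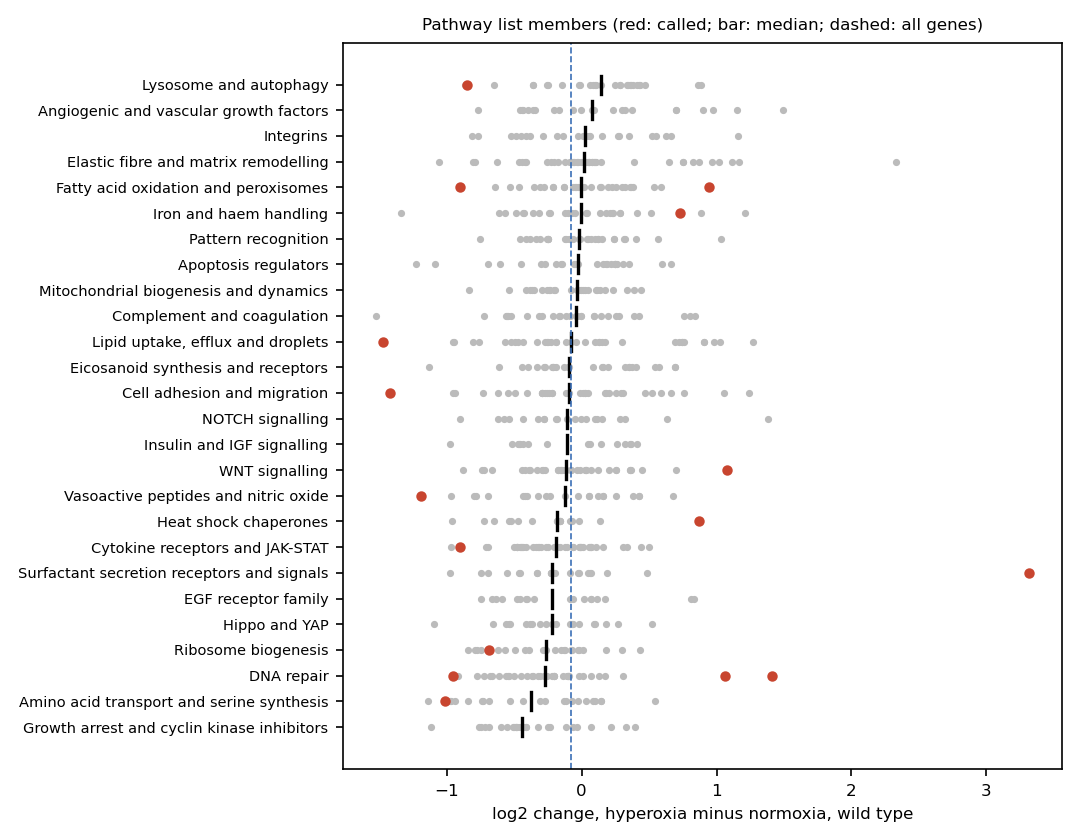
Log2 change with hyperoxia in wild type (x axis) of each measured member (points) of the 26 pathway lists (y axis), with called members in red, list medians as black bars and the median of all genes (-0.08) as a dashed line. Growth arrest genes have the lowest median (-0.44) and lysosome and autophagy genes the highest (0.15), and no list has more than 3 red points.

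Of 30 measured genes of fatty acid oxidation and peroxisomes, 15 had a positive and 15 a negative change, and 2 were called, in opposite directions. Acaa1b, a peroxisomal thiolase, rose from 6.60, 6.92, 6.65 and 6.52 to 7.49, 7.61 and 7.80 (lowest, median, highest; limma adjusted p = 0.0107), and Hadha, the alpha subunit of the mitochondrial trifunctional protein, fell from 7.16, 7.16, 6.94 and 7.06 to 5.61, 6.28 and 6.62 (limma adjusted p = 0.0189). Neither had overlapping groups, and Hadha did not pass without normoxia replicate 2 (-0.88) or 4 (-0.91). The median of the list was -0.003. Lipid uptake, efflux and droplets (37 measured, median -0.08) had Apoc1 as its 1 call and 15 members at an unadjusted p under 0.05. Pparg, the lipid-sensing nuclear receptor, was at 0.74 (adjusted p = 0.0797) and Vldlr, a lipoprotein receptor, at 1.27 (adjusted p = 0.0538), both picked after their values were seen.

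Iron and haem genes (28 measured, median -0.01) had 1 call, Ftl1, the ferritin light chain, which rose from 14.70, 14.81, 15.04 and 14.46 to 15.38, 15.52 and 15.53. The hyperoxia values lie near the highest values on the arrays, and whether this limited the measured change was not tested. Ftl1 changed by 0.73 (limma adjusted p = 0.0347) and passed in 2 of the 10 fits that left out a sample. Its change was 0.71 without normoxia replicate 1 and 0.63 without replicate 4. Mitochondrial biogenesis (27 measured, median -0.03) had 0 calls by limma and 4 members at an unadjusted p under 0.05, with the uncoupling protein Ucp2 at -0.83 (adjusted p = 0.0582).

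Heat shock chaperones (18 measured) had a median of -0.18 with 16 negative. Their 1 call, Hspa8, rose but was set aside because its other features did not move. Apoptosis regulators (27 measured, median -0.03) had 0 calls by limma and 7 members at an unadjusted p under 0.05, with the death-promoting Bcl2l11 at -1.08 (adjusted p = 0.0784). Complement and coagulation (29, -0.04) and pattern recognition (30, -0.02) had 0 calls by limma with 6 and 3 members at an unadjusted p under 0.05, led by complement factor B (Cfb, -1.53, adjusted p = 0.0717) and the receptor Clec7a (1.04, adjusted p = 0.12). Cytokine receptors and JAK-STAT (42 measured) had a median of -0.19 with 31 negative, and Bcl3 was the 1 call.

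Matrix genes (45 measured, median 0.02) and integrins (24, 0.02) had 0 calls by limma with 10 and 5 members at an unadjusted p under 0.05, led by fibulin 2 (Fbln2, -0.79, adjusted p = 0.0827) and the integrin chain Itga1 (1.16, adjusted p = 0.0953). Without normoxia replicate 1, the library high in fibroblast and smooth muscle markers, 5 matrix genes (median 0.15) and 2 integrins were called higher, and without replicate 4 the matrix median was -0.17. Adhesion and migration genes (37, -0.09) had Cdh16 as the 1 call. Centring the arrays turned the sign of 11 of the 26 list medians, and the largest of these was 0.11 in size.

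The same comparison was made in Fgf10+/- pups, whose samples are in neither wild-type group mean but entered the shared estimate of spread and the choice of feature. In wild-type samples alone 187 of the 320 genes were called again. The Fgf10+/- comparison gave changes of the same sign in 113 of the 116 higher genes (97.4%) and in 202 of the 204 lower genes (99.0%). Over all genes 46.6% had a positive and 53.4% a negative change there. Of the 320 genes, 39 higher and 67 lower ones were called in Fgf10+/- as well, where 1.18% of all genes were called higher and 1.26% lower (2.45% together) with only 2 hyperoxia samples, and 0 were called in the opposite direction. The median change of the higher genes was 1.05 in wild type and 0.92 in Fgf10+/-, and that of the lower genes was -0.93 in both. In the order of the series all normoxia samples of both genotypes come before all hyperoxia samples, and how they were run is not labelled. A difference in handling between the oxygen groups, shared by both genotypes, cannot be told apart from hyperoxia here.

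Creg1 changed by 1.13 in Fgf10+/- (limma adjusted p = 0.0065), Flcn by 1.08 (adjusted p = 0.0263), Rnase10 by 2.09 (adjusted p = 0.00233), Cirbp by -1.47 (adjusted p = 0.00384) and Sf3a2 by -1.45 (adjusted p = 0.00459). Mmrn2 changed by 2.48 (adjusted p = 0.00375), Robo4 by 2.67 (adjusted p = 0.00532) and H19 by -2.38 (adjusted p = 0.00328). Clk1 was at 0.16 there (limma adjusted p = 0.839), Hdac7 at -0.74 (adjusted p = 0.114) and Meg3 at 0.69 (adjusted p = 0.425), none past the threshold. A difference in response between the genotypes was called for 2 genes of the whole table (0.00965%), and none of the genes named above was among them.

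**Figure D5:**
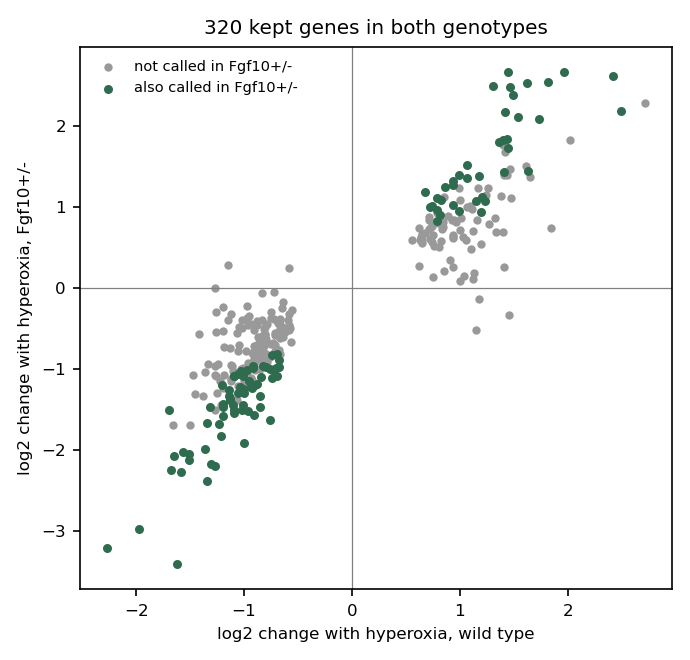
Log2 change with hyperoxia in wild type (x axis, 6 against 4 samples) and in Fgf10+/- (y axis, 2 against 4 samples) for the 320 genes left, with the 106 also called in Fgf10+/- in green. All but 5 points lie in the quadrants of equal sign.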

How the data were processed

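The deposited values are log2 intensities of single-colour Cy3 Agilent arrays. That they are log2 values was read from their span, -0.4 to under 16. Sorted, the arrays were alike to within 0.204 at each rank, which shows that the authors had brought them to a shared distribution, with software that the sources used here do not name. Slides, scans and detection flags are not labelled. Samples followed titles and genotype labels (4, 4, 6 and 2), although the series text gives 4 per group.

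Of 62976 features, 65 with a missing value were left out, and 31439 named ones covered 20725 genes, each represented by its brightest feature (mean over the 16 samples). Symbols were updated through RefSeq tables (GRCm38.p6). Group means of all 16 samples were fitted with limma 3.58.1 in R 4.3.3 (lmFit, eBayes), with Benjamini-Hochberg adjustment over all genes and a threshold of 0.05. The fit was tested on simulated data.

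Co-rising genes were those whose deviations from group means correlated at r over 0.7 with the mean of 8 seed genes (419 genes). Named genes were the 14 highest and 14 lowest called genes whose groups did not overlap and whose fold was 1.5 or more, with a mean of at least 6 in 1 group, and up to 2 called members of each pathway list or else the member with the smallest p. Genes outside this rule were picked after their values were seen. Among them were genes called in both genotypes with a second feature that moved in wild type, and the marker genes of the closing section. The members and lists were chosen with earlier results of these data known. The 26 pathway lists and 14 cell marker lists are described by counts and medians.

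Alternatives were each sample left out, 1 mean over a gene's features, wild-type samples alone, centring, a filter on dim genes, another prior, array weights, a replicate block, marker means as covariates, 2 libraries left out together, and co-rising genes left out.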

Additional observations from a re-analysis of the deposited data

Results flagged for a closer look

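In 8 of 192 sets of samples looked at, 1 sample lay far from the others of its group by Dixon's criterion, which chance meets in about 1 in 20 sets. In wild-type normoxia these were Mmrn2 at 9.30 in replicate 2 (nearest other sample 8.73), Spry2 at 4.64 in replicate 4 (5.04), Flcn at 7.82 in replicate 2 (8.20), Hmgn5 at 7.97 in replicate 2 (8.60) and Csrnp1 at 11.48 in replicate 4 (12.18). In wild-type hyperoxia they were Cdca3 at 7.08 in replicate 5 (6.05), Apoc1 at 8.36 in replicate 6 (7.87) and Sqstm1 at 8.46 in replicate 5 (8.98).

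The response to hyperoxia differed between genotypes for 2 genes, C1rb (interaction -2.20) and Psd2 (interaction -2.22), with limma adjusted p = 0.0471 for each. C1rb changed by 0.42 in wild type and -1.78 in Fgf10+/-, and Psd2 by 0.53 and -1.69. Both are dim in wild type, with group means under 6, and neither passed in any of the 10 fits that left out a wild-type sample.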

How the results depend on the processing

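The wild-type count of 649 became 1172 with only genes of a mean of at least 6 and 999 with an intensity trend and robust prior. It was 216 with a replicate block, 290 without normoxia replicates 1 and 4, 410 with the smooth muscle covariate, 333 without co-rising genes before the fit, and 323 to 679 when 1 sample was left out. Of the 320 genes left, 187 were called again in wild-type samples alone, 51 with the replicate block, 77 without both normoxia libraries, 155 and 130 with the thymocyte and smooth muscle covariates, 212 without co-rising genes, and 102 to 254 when 1 sample was left out. The drop exceeded 1.5 times without each sample except hyperoxia replicates 3 and 4. The Fgf10+/- count of 507 became 332 with the mean of all features, 792 with the filter, 103 with the block, 139 and 107 with the covariates and 282 without co-rising genes. The interaction count of 2 became 0 under the filter, the prior, the block, both covariates, without both libraries, and in each fit that left out 1 sample. Rbm3, which was not called, turned from -0.42 to 0.009 without both libraries. Of 82 named genes that were called, 44 passed in all 10 fits that left out a sample. Replicate numbers were not taken to pair samples, since deviations of same-numbered samples correlated at -0.01 to 0.21 and 2 of 4 samples correlated best with their own number. The cause of these shifts was not tested. Features at background cannot be told from dim ones, and slides could not be tested.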

Other observations

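Receptor families that lung epithelium is not known for gave a measure of calls among dim features. Of 1084 odorant receptor genes 1 had a normoxia mean of 6 or more, and 6 rose and 2 fell (0.74% against 3.13% of all genes). Of 255 vomeronasal receptor genes 0 had such a mean, and 8 rose and 0 fell (3.14%). Of 67 cytosolic ribosomal protein genes 1 rose (Rpl7) and 1 fell (Rps18), 55 had a negative change, and the median was -0.20.

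Markers of blood cells moved singly. Among neutrophil markers, the receptor Csf3r rose by 1.56 (limma with Benjamini-Hochberg adjusted p = 0.00775), from a mean of 12.04 to 13.60, while the granule enzyme Mpo fell by 1.51 (adjusted p = 0.0381), both with overlapping groups. Csf3r is 1 of the co-rising genes that were set aside. The erythroid gene Hemgn fell by 0.93 (limma adjusted p = 0.0141), from 11.01 to 10.08. The medians of these lists were 0.09 over 10 neutrophil markers and 0.20 over 9 erythroid markers. The B cell gene Cd22 rose by 1.65 (limma adjusted p = 0.00677) in a list of 8 with a median of -0.27, and was set aside because its other features did not move. Median changes of other marker lists were 0.07 for 10 alveolar type I markers, -0.35 for 15 AT2 markers, -0.42 for 7 mesothelial markers, 0.15 for 11 macrophage markers and -0.26 for 8 neuroendocrine markers, with 0 members called by limma and 0, 2, 0, 4 and 1 at an unadjusted p under 0.05. Fibroblast markers (14) had a median of 0.38, smooth muscle and pericyte markers (12) 0.74 and thymocyte and T cell markers (13) -1.02. Without normoxia replicate 1 the fibroblast median was 0.88 and the smooth muscle median 1.22, each with 5 members called, and without replicate 4 the thymocyte median was -0.36.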
